A study of Mus musculus with 8 samples.

Results

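Cd79a and Cd79b encode Igα and Igβ, the paired signal chains of the B cell receptor. The 2 genes were followed in mouse pro-B cells through the accessible chromatin regions that lie nearest to them. Chromatin accessibility was measured by ATAC-seq, in which the transposase Tn5 cuts open DNA and inserts adapters into it. Of 54239 regions in the EBF1-dTAG_C line, 7 were assigned to the genes, 3 to Cd79a and 4 to Cd79b. Of 55193 regions in the EBF1-dTAG_N line, 6 were assigned, 2 to Cd79a and 4 to Cd79b. The rule took the protein-coding gene whose span lay closest to the centre of the region, up to 100 kb away. Counted once across the lines, these were 7 places, of which 6 were present in both.

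The cells were pro-B cells transformed with A-MuLV, the Abelson murine leukaemia virus, in which exogenous modified genes had replaced endogenous EBF1. Their names give EBF1 a dTAG, a degron through which the small molecule dTAG-13 brings a protein to degradation. The 4 groups were EBF1-dTAG_C with 0.5 uM dTAG-13 for 6 h, EBF1-dTAG_N with the same, EBF1-dTAG_C with DMSO for 6 h and EBF1-dTAG_N with DMSO for 6 h. Each had 2 libraries, described by the series as biological replicates, and the controls carried the same modified EBF1 and the same virus. The titles call the controls 0h, and the treatment label was followed here. Each line is represented by 1 transformed line, and the amount of EBF1 protein was not measured in these data.

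In background, Igα and Igβ form a disulfide-linked pair that accompanies membrane immunoglobulin, and each carries an immunoreceptor tyrosine-based activation motif in its cytoplasmic tail. On pro-B cells they reach the surface before the heavy chain is made, and on pre-B cells they join the heavy chain and the surrogate light chain, built from the products of Igll1 and Vpreb1 or Vpreb2, in the pre-B cell receptor. Phosphorylated motifs recruit the kinase Syk. Cd79a, also known as mb-1, has one of the best studied promoters bound by EBF1, and Cd79b is also known as B29.

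The promoter of Cd79a is shown because the Cd79a region with the highest accessibility lay over it. The sequence is the RefSeq promoter window of GRCm38.p6, chr7:24897247-24897546 on the plus strand, with 250 bases before the gene start and 50 after it. Capitals mark the matches found to the EBF1 core variant CTCNNGGG and to the E protein E-box CAGGTG, both read on either strand.

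Cd79a: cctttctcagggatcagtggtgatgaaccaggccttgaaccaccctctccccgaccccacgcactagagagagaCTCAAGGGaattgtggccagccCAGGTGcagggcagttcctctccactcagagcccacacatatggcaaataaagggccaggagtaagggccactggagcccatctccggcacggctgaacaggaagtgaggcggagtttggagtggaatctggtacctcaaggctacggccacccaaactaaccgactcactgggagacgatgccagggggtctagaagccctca

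The CTCAAGGG match ran from position -176 to -169 relative to the gene start (chr7:24897321-24897328), and the CAGGTG match from -154 to -149 (chr7:24897343-24897348). CTCNNGGG was present in 24.6% and CAGGTG in 20.2% of the 32851 RefSeq promoter windows of the same length. The window held no match to the EBF1 core CCCNNGGG, present in 13.7% of windows. Nor did it match the exact strings TGTGGT (16.8%), searched for RUNX, or CCGGAA (14.9%), searched for ETS factors. Other spellings of the RUNX and ETS motifs were not searched, so the window cannot be read as lacking such sites. It holds tgtggc shortly after the CTCAAGGG match and aggaag further on. The summits of the 8 Cd79a promoter peaks, 1 per library, lay between -128 and -78, which is 44.5 to 94.5 bp downstream of the centre of the CTCAAGGG match. The same window of Cd79b was not analysed here.

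Most of the accessible sites of the 2 genes became less accessible with dTAG-13, at the start of both genes and beyond the other end of Cd79b. In the authors' deposited table of EBF1-dTAG_C, 4 of the 7 regions fell at an adjusted p under 0.05 and 0 rose, where 6.62% of all regions fell and 0.308% rose. Of the 6 regions in the authors' deposited table of EBF1-dTAG_N, 4 fell and 0 rose, where 18.5% of all regions fell and 18.8% rose. The 4 places were the same in both lines, namely the Cd79a start, the Cd79b start and 2 regions beyond the other end of Cd79b; of all 43139 regions paired between the lines, 7.98% fell in both. The median log2 fold change of the members was -0.58 in EBF1-dTAG_C and -0.60 in EBF1-dTAG_N in the authors' deposited tables, beside 0.09 and 0.17 over all regions. The deposited tests differ between the lines: in EBF1-dTAG_N the spread was pooled over regions (110386 denominator degrees of freedom, against 11.2 in EBF1-dTAG_C), so its p-values do not rest on the replicates of a single region.

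**Figure D1:**
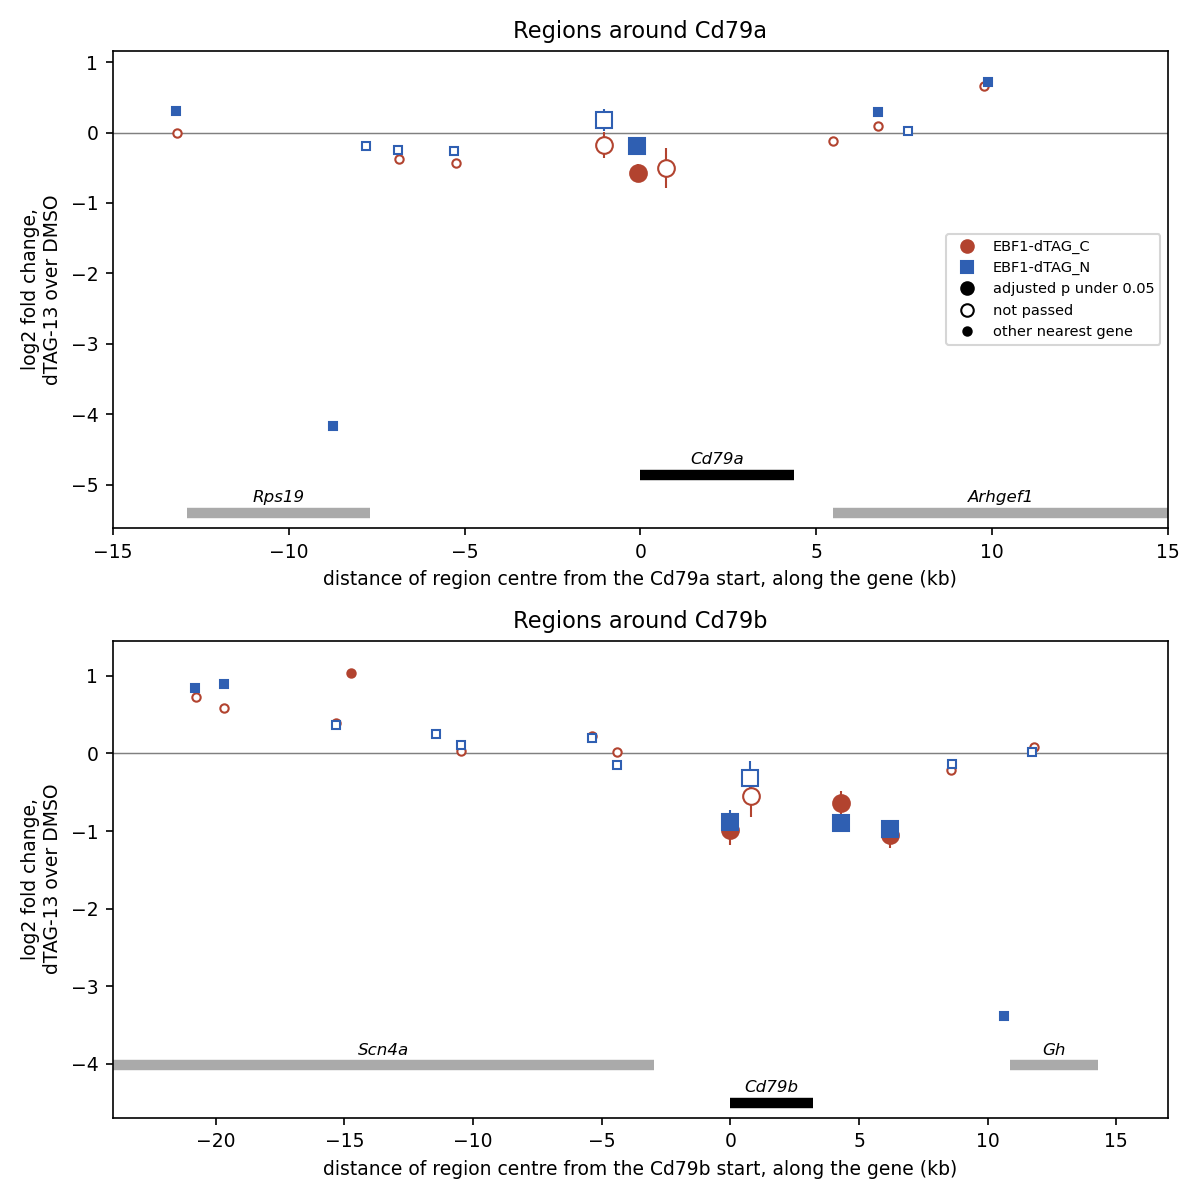
Log2 fold changes (dTAG-13 over DMSO, vertical axis) of the regions around Cd79a (upper panel) and Cd79b (lower panel) against the distance of their centres from the gene start in kb, for EBF1-dTAG_C (red circles) and EBF1-dTAG_N (blue squares). Large symbols are regions of the 2 genes with bars of 1 approximate standard error, small symbols are regions nearest to another gene, filled symbols passed an adjusted p of 0.05, and horizontal bars are gene spans; the 3 regions of Cd79b that fell in both lines lie at its start and beyond its other end.

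Cd79a spans chr7:24897497-24901858 (4362 bp, GRCm38). Its promoter region, the Cd79a start, covered chr7:24897172-24897684 in EBF1-dTAG_C and chr7:24897147-24897646 in EBF1-dTAG_N. At a mean abundance of 6.79 log2 CPM in EBF1-dTAG_C and 6.56 log2 CPM in EBF1-dTAG_N, from the authors' deposited tables, it lay above 97.1% and 96.3% of all regions. The per-library values that follow are numbers of reads over the summit base, recovered from the deposited peak values and scaled to one depth within each line. At the Cd79a start the scaled summit coverage was 164 and 128 in the dTAG-13 libraries of EBF1-dTAG_C, against 219 and 192 in its DMSO libraries. In EBF1-dTAG_N it was 175 and 144 with dTAG-13, against 228 and 218 with DMSO. In each line the higher dTAG-13 value was still under the lower DMSO value. How common such a separation is among all regions is not given here. Unscaled, the numbers of reads were 133 and 123 with dTAG-13 against 260 and 207 with DMSO in EBF1-dTAG_C, and 150 and 148 against 253 and 224 in EBF1-dTAG_N. The 95% Poisson interval of the lowest of these, 123 reads, was 102 to 147, and such intervals cover counting error only.

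The mean scaled summit coverage of the Cd79a start was 146 ± 25.4 with dTAG-13 and 206 ± 19.3 with DMSO in EBF1-dTAG_C (SD, n = 2 each), a log2 ratio of -0.50. In EBF1-dTAG_N it was 160 ± 21.8 with dTAG-13 and 223 ± 6.75 with DMSO (SD, n = 2 each), a log2 ratio of -0.49. Counted over the whole region, the Cd79a start in the authors' deposited tables was 1.49-fold lower in EBF1-dTAG_C (log2 fold change -0.58, adjusted p = 0.0143) and 1.14-fold lower in EBF1-dTAG_N (log2 fold change -0.19, adjusted p = 0.0410). These folds also differ from the coverage ratios in scaling. Their median over all regions was 0.09 in EBF1-dTAG_C and 0.17 in EBF1-dTAG_N, an offset that scaling coverage by the median ratio removes. The call in EBF1-dTAG_N was lost when its F was read against the degrees of freedom of EBF1-dTAG_C (adjusted p = 0.0908), a setting under which 16.3% of its regions fell. It passed with a log2 fold change of -0.36 (adjusted p = 2.64e-05) when folds were centred on the median of the table. That p-value keeps the pooled degrees of freedom of EBF1-dTAG_N, and centring was not combined with those of EBF1-dTAG_C. Of all regions, 17.5% in EBF1-dTAG_C and 29.5% in EBF1-dTAG_N had a fold at or below that of the Cd79a start. Among regions over any RefSeq promoter window, 1.34% fell in EBF1-dTAG_C and 4.24% in EBF1-dTAG_N.

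The other Cd79a regions did not pass the test. The upstream region, 1.04 kb before the gene start in EBF1-dTAG_C (chr7:24896303-24896605) and 1.03 kb before it in EBF1-dTAG_N (chr7:24896326-24896616), had a peak in all 8 libraries. Its scaled summit coverage was 49.2 and 43.6 with dTAG-13 against 59.9 and 56.6 with DMSO in EBF1-dTAG_C. In EBF1-dTAG_N it was 33.9 and 61.4 with dTAG-13 against 36.0 and 64.3 with DMSO, so that the groups overlapped and the 2 libraries of each group differed more than the treatments did. Its log2 fold change in the authors' deposited tables was -0.17 in EBF1-dTAG_C (adjusted p = 0.731) and 0.18 in EBF1-dTAG_N (adjusted p = 0.365). Centred on the median of each table, the fold was -0.26 in EBF1-dTAG_C and 0.01 in EBF1-dTAG_N. The internal region, centred 0.734 kb into the gene (chr7:24898102-24898360), appeared in EBF1-dTAG_C alone. It had a peak in 1 of 2 dTAG-13 libraries, with a scaled summit coverage of 30.8, and in 1 of 2 DMSO libraries, with 36.2. Its log2 fold change in the authors' deposited table was -0.50 (adjusted p = 0.446).

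Cd79b spans chr11:106311341-106314562 (3222 bp) and is read from its higher-numbered end. The region over that end, the Cd79b start, covered chr11:106314422-106314740 in EBF1-dTAG_C and chr11:106314420-106314756 in EBF1-dTAG_N. Its scaled summit coverage was 32.0 and 43.6 with dTAG-13, against 70.0 and 67.7 with DMSO, in EBF1-dTAG_C. In EBF1-dTAG_N it was 45.6 and 31.2 with dTAG-13, against 84.7 and 89.7 with DMSO. The groups did not overlap in either line. The means were 37.8 ± 8.23 with dTAG-13 and 68.9 ± 1.64 with DMSO in EBF1-dTAG_C, and 38.4 ± 10.1 with dTAG-13 and 87.2 ± 3.54 with DMSO in EBF1-dTAG_N (SD, n = 2 each). In the authors' deposited tables the Cd79b start was 1.97-fold lower in EBF1-dTAG_C (log2 fold change -0.98, adjusted p = 0.00898) and 1.84-fold lower in EBF1-dTAG_N (log2 fold change -0.88, adjusted p = 1.02e-08). Its mean abundance there was 4.70 log2 CPM in EBF1-dTAG_C and 4.68 log2 CPM in EBF1-dTAG_N, under that of the Cd79a start.

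Beyond the other end of the gene stood 2 further regions of Cd79b, called near and far here. The near 3′ region was centred 1.07 kb outside the gene span in EBF1-dTAG_C (chr11:106310080-106310456) and 1.09 kb outside it in EBF1-dTAG_N (chr11:106310052-106310447). Its scaled summit coverage was 68.9 and 74.8 with dTAG-13 against 97.8 and 130 with DMSO in EBF1-dTAG_C. In EBF1-dTAG_N it was 63.1 and 71.2 with dTAG-13 against 132 and 126 with DMSO. Again the groups did not overlap, and the DMSO libraries of EBF1-dTAG_C were the furthest apart within a group. The near 3′ region in the authors' deposited tables was 1.56-fold lower in EBF1-dTAG_C (log2 fold change -0.64, adjusted p = 0.0340) and 1.86-fold lower in EBF1-dTAG_N (log2 fold change -0.89, adjusted p = 2.81e-17).

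The far 3′ region was centred 2.96 kb outside the span in EBF1-dTAG_C (chr11:106308191-106308562) and 2.97 kb outside it in EBF1-dTAG_N (chr11:106308119-106308617). Its scaled summit coverage was 55.4 and 32.2 with dTAG-13 against 91.9 and 145 with DMSO in EBF1-dTAG_C. In EBF1-dTAG_N it was 87.6 and 73.1 with dTAG-13 against 192 and 201 with DMSO. The dTAG-13 libraries lay below the DMSO libraries of their own line, and in EBF1-dTAG_N the DMSO libraries held the highest values of any Cd79b region. The far 3′ region in the authors' deposited tables was 2.07-fold lower in EBF1-dTAG_C (log2 fold change -1.05, adjusted p = 0.00152) and 1.96-fold lower in EBF1-dTAG_N (log2 fold change -0.97, adjusted p = 1.13e-28). Its abundance in those tables, 5.83 log2 CPM in EBF1-dTAG_C and 6.31 log2 CPM in EBF1-dTAG_N, exceeded that of the Cd79b start. Read against the degrees of freedom of EBF1-dTAG_C, the EBF1-dTAG_N adjusted p-values were 6.08e-06 for the far 3′ region, 4.88e-05 for the near 3′ region and 0.000787 for the Cd79b start.

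The Cd79b internal region, centred 0.789 kb from the start in EBF1-dTAG_C (chr11:106313671-106313876) and 0.777 kb from it in EBF1-dTAG_N (chr11:106313674-106313896), was the weakest of the 4. In EBF1-dTAG_C it had no peak in the 2 dTAG-13 libraries and peaks with a scaled summit coverage of 22.8 and 26.0 in the DMSO libraries. In EBF1-dTAG_N it had peaks of 23.4 and 27.3 in the dTAG-13 libraries and of 32.4 in 1 DMSO library, and none in the other. The presence of a peak thus ran in opposite directions in the lines. Its log2 fold change in the authors' deposited tables was -0.55 in EBF1-dTAG_C (adjusted p = 0.324) and -0.32 in EBF1-dTAG_N (adjusted p = 0.260), so it passed in neither line.

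**Figure D2:**
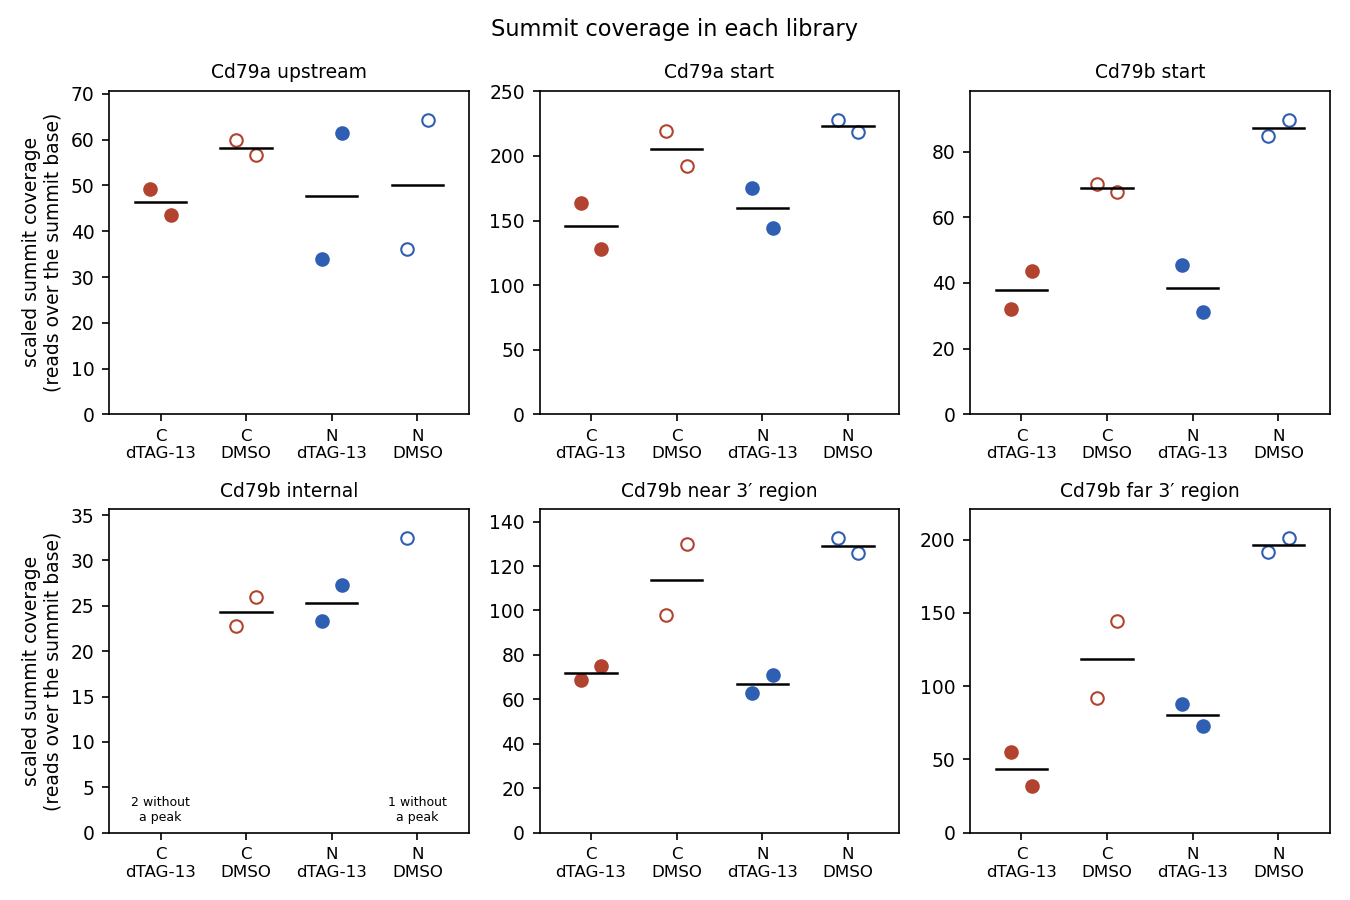
Scaled summit coverage (reads over the summit base, vertical axis) of each library at the 6 places found in both lines, with dTAG-13 as filled and DMSO as open points for EBF1-dTAG_C (C, red) and EBF1-dTAG_N (N, blue), and black lines for group means. At the Cd79a start, the Cd79b start and both 3′ regions the dTAG-13 points lie below the DMSO points of the same line, while at the Cd79a upstream region they overlap in EBF1-dTAG_N.

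Over both lines, with treatment labels permuted within each line (36 arrangements), the exact two-sided permutation p was 0.0556 for the Cd79a start, the Cd79b start and both 3′ regions (0.0694 after Benjamini-Hochberg adjustment over the 5 regions with peaks in all 8 libraries). This is the smallest p that the design allows, and within 1 line it is 0.333. In these 4 regions the mean log2 ratio of coverage was -0.50, -1.05, -0.80 and -1.37, in that order. All 4 dTAG-13 libraries lay below the lower DMSO library of their line. The share of all regions whose groups separated in this way is not given here. The separation at these places therefore cannot be set against a genome-wide level. For the Cd79a upstream region the exact permutation p was 0.389, with a mean log2 ratio of -0.20. There 3 of 4 dTAG-13 libraries lay below the lower DMSO library of their line.

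The dTAG-13 libraries had the lower genome-wide background in each line, 0.229 and 0.258 reads against 0.344 and 0.331 with DMSO in EBF1-dTAG_C, and 0.348 and 0.372 against 0.408 and 0.401 in EBF1-dTAG_N, taken here as a mark of depth. Its part in the presence of the weak internal peaks was not tested. Scaled by that background in place of peak heights, the log2 ratio in EBF1-dTAG_C was -0.39 at the Cd79a start (-0.50 with the scaling by peaks) and -0.53 at the near 3′ region (-0.65 with the scaling by peaks). The local background lay above the median of all peaks around both genes, and it varied more around Cd79b. With DMSO its highest values were at Cd79b. At the Cd79a start the local background was 25.2 and 22.9 times the lowest of the library with dTAG-13 and 33.4 and 29.8 times with DMSO in EBF1-dTAG_C, and 20.4 and 19.6 times against 24.6 and 25.4 times in EBF1-dTAG_N. Over all peaks the median of this ratio was 2.70 to 3.47 and its 95th percentile 15.7 to 20.2 in the 8 lists. At the Cd79b peaks it was 16.0 to 28.3 times with dTAG-13 and 18.6 to 45.8 times with DMSO in EBF1-dTAG_C, and 8.63 to 22.9 times with dTAG-13 and 18.5 to 43.5 times with DMSO in EBF1-dTAG_N. The deposited fold enrichment divides by this local level. At the Cd79a start it was 19.8 and 17.9 with dTAG-13 against 20.9 and 19.2 with DMSO in EBF1-dTAG_C, and 18.6 and 18.0 against 23.0 and 20.1 in EBF1-dTAG_N, so that the groups overlapped in EBF1-dTAG_C. At the Cd79a upstream region it was higher in both dTAG-13 libraries of EBF1-dTAG_C, 6.11 and 6.49 against 5.70 and 5.64 with DMSO, opposite to the scaled coverage, and in EBF1-dTAG_N the groups overlapped, with 3.72 and 7.37 in dTAG-13 libraries and 3.57 and 5.86 in DMSO libraries. At the near 3′ region in EBF1-dTAG_C the groups overlapped too, with 7.61 and 10.2 in dTAG-13 libraries and 8.95 and 8.74 in DMSO libraries.

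The lines could be compared at 6 places. The approximate difference in log2 fold change, EBF1-dTAG_C minus EBF1-dTAG_N, was -0.39 at the Cd79a start (95% interval -0.71 to -0.068, unadjusted p = 0.0219 and adjusted p = 0.994 by the approximate test across all 43139 pairs). At the Cd79b start it was -0.10 (-0.63 to 0.43), at the near 3′ region 0.25 (-0.16 to 0.67) and at the far 3′ region -0.08 (-0.48 to 0.31). At the Cd79a upstream region it was -0.35 (-0.87 to 0.17) and at the Cd79b internal region -0.24 (-0.99 to 0.51). No difference passed adjustment at these 6 places, nor did any of the 43139 pairs by this test (0%), of which 1748 (4.05%) had an unadjusted p under 0.05. The intervals do not show that the lines were alike.

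**Figure D3:**
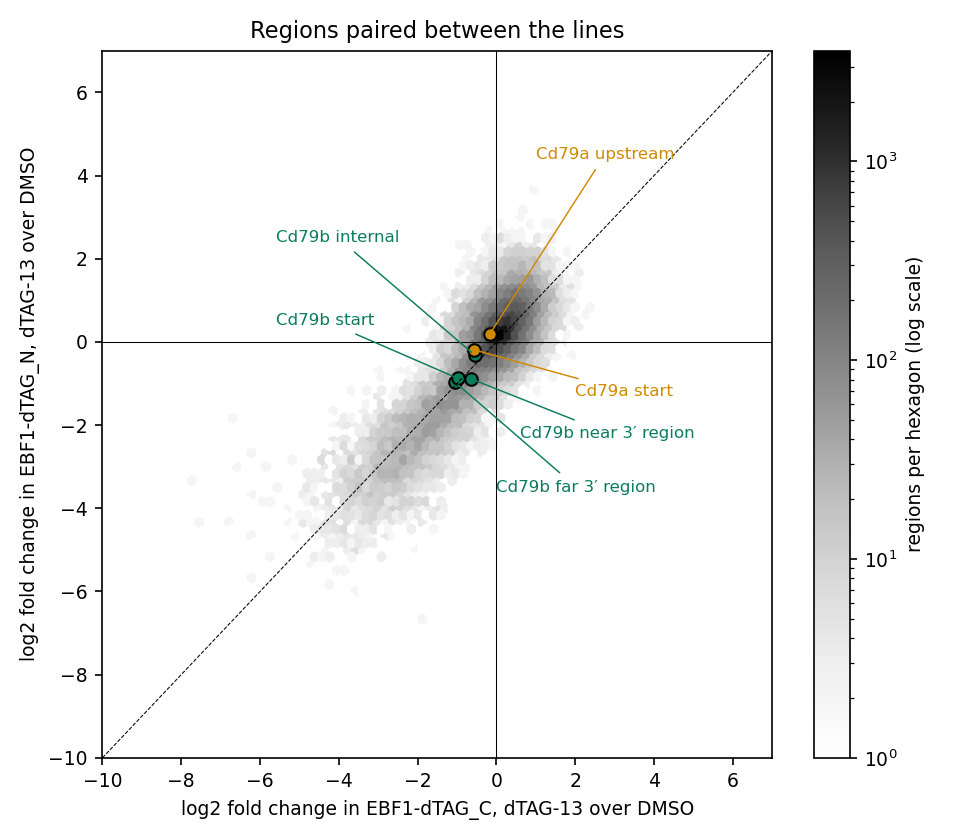
Log2 fold changes (dTAG-13 over DMSO) of the 43139 regions paired between the lines, in EBF1-dTAG_C on the horizontal and EBF1-dTAG_N on the vertical axis, with grey shade for the number of regions per hexagon on a log scale and a dashed line of equality. Of the 6 places of Cd79a (orange) and Cd79b (green), 5 lie below 0 in both lines, and the Cd79a upstream region has -0.17 in EBF1-dTAG_C and 0.18 in EBF1-dTAG_N. Centred on the median of each table, which is not drawn, that region has -0.26 in EBF1-dTAG_C and 0.01 in EBF1-dTAG_N.

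Regions near the 2 genes but nearest to another gene were counted in the same way, against shares over all regions of 6.62% that fell and 0.308% that rose in EBF1-dTAG_C and of 18.5% and 18.8% in EBF1-dTAG_N. Within 50 kb of Cd79a, 1 of 10 such regions fell and 0 rose in EBF1-dTAG_C, and 2 of 12 fell and 4 rose in EBF1-dTAG_N. Within 50 kb of Cd79b, 1 of 15 fell and 1 rose in EBF1-dTAG_C, and 3 of 16 fell and 2 rose in EBF1-dTAG_N. Some neighbours fell more than any region of the 2 genes. A region inside Erfl, 40.4 kb from the Cd79a start, was 4.79-fold lower in EBF1-dTAG_C (adjusted p = 0.00311) and 4.36-fold lower in EBF1-dTAG_N (adjusted p = 3.07e-14) in the authors' deposited tables. A region inside Smarcd2, which encodes a subunit of the BAF chromatin remodelling complex, had a log2 fold change of -1.73 in EBF1-dTAG_C (adjusted p = 0.00660) and of -2.82 in EBF1-dTAG_N (adjusted p = 2.16e-26) in the authors' deposited tables, 45.3 kb from the Cd79b start.

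Other neighbours were called in 1 line, and some of them had no region in the other line to be tested. In the authors' deposited table of EBF1-dTAG_N, a region inside Rps19, a ribosomal protein gene, was 17.9-fold lower, a region 227 bp outside Gh, the growth hormone gene, was 10.4-fold lower, and a further Smarcd2 region was 1.48-fold lower. None of these regions that fell had a counterpart in EBF1-dTAG_C. The Rps19 region had a peak in neither dTAG-13 library and in 1 of 2 DMSO libraries, as did the further Smarcd2 region. The Gh region had a peak in neither dTAG-13 library and in both DMSO libraries. The same table had higher values at a region of Lypd4 (1.98-fold), at regions of Arhgef1 (1.22-fold and 1.65-fold), at a region beside Rps19 (1.23-fold) and at regions of Scn4a, a muscle sodium channel gene (1.86-fold and 1.79-fold). The 1.22-fold and 1.23-fold rises did not pass once folds were centred on the median (adjusted p = 0.282 and 0.0923). In the authors' deposited table of EBF1-dTAG_C, a region inside Scn4a was 2.05-fold higher (adjusted p = 0.0381, or 0.0554 after centring). That region had a peak in 1 dTAG-13 library and in neither DMSO library, and had no counterpart in EBF1-dTAG_N.

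Of 24 other genes of the receptor pathway, all of which had a region, 19 had at least 1 region that fell and 1 had a region that rose in EBF1-dTAG_C. In EBF1-dTAG_N 23 had a region that fell and 15 one that rose. The same share over all genes was not computed, and a gene with many regions is more likely to have 1 that was called. By region, 33 of 226 fell (14.6%) and 1 rose (0.442%) in EBF1-dTAG_C, beside 6.62% and 0.308% of all regions. In EBF1-dTAG_N 67 of 237 fell (28.3%) and 46 rose (19.4%), beside 18.5% and 18.8% of all regions. The median log2 fold change of the list was 0.05 in EBF1-dTAG_C and 0.07 in EBF1-dTAG_N, beside 0.09 and 0.17 over all regions.

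The smallest adjusted p-values of falls in the list belonged to the same 3 genes in both lines. Igll1, which encodes the λ5 part of the surrogate light chain, was 7.59-fold lower in EBF1-dTAG_C (adjusted p = 4.01e-06) and 8.30-fold lower in EBF1-dTAG_N (adjusted p = 3.50e-314) in the authors' deposited tables. A region 9967 bp outside Vpreb2 in EBF1-dTAG_C and 9971 bp outside it in EBF1-dTAG_N, a gene of the other part of that chain, had a log2 fold change of -2.35 in EBF1-dTAG_C (adjusted p = 3.18e-06) and of -1.84 in EBF1-dTAG_N (adjusted p = 3.45e-103) in the authors' deposited tables. A region inside Inpp5d, which encodes the inositol phosphatase SHIP1, was 3.81-fold lower in EBF1-dTAG_C (adjusted p = 3.75e-05) and 4.21-fold lower in EBF1-dTAG_N (adjusted p = 5.25e-144) in the authors' deposited tables. Each of these changes was larger than any at Cd79a or Cd79b.

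Promoters of the list were set beside that of Cd79a. RefSeq windows were found for 21 of the 24 genes, 26 windows in all, and 23 of them overlapped a region in both tables. Regions over 5 windows fell in both lines, those of Cd22, Igll1, Vpreb1, Vpreb2 and Pik3ap1. Of all regions over a promoter window, 1.34% fell in EBF1-dTAG_C and 4.24% in EBF1-dTAG_N, each line counted alone. The share of such regions that fell in both lines was not computed. All 5 windows held CTCNNGGG or CCCNNGGG, as did 11 of the 26 windows and 34.0% of all 32851 windows. The 24 bases around each match, from GRCm38.p6, are shown to compare them with Cd79a, with the match in capitals and each line written in the direction in which the motif reads.

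Cd79a (chr7:24897313-24897336, plus strand): gagagagaCTCAAGGGaattgtgg
Vpreb1 (chr16:16869403-16869426, minus strand): ctcagcctCTCAAGGGgagttgag
Igll1, nearer match (chr16:16864151-16864174, minus strand): gcccagagCTCTAGGGatgggtta
Igll1, farther match (chr16:16864201-16864224, minus strand): tccacagaCCCAGGGGccctcagg
Vpreb2 (chr16:17980510-17980533, minus strand): agccactgCTCCTGGGacctgacc
Cd22 (chr7:30879061-30879084, minus strand): tgcaagatCCCTGGGGactcacac
Pik3ap1 (chr19:41385299-41385322, minus strand): tcagactgCTCTTGGGggacatcg

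Read along the gene, the first base of the match lay at position -176 in Cd79a, -163 in Vpreb1, -181 and -231 in Igll1, -47 in Vpreb2, -48 in Cd22 and -212 in Pik3ap1, counted from the gene start. The Vpreb2 motif reads against the direction of its gene, so -47 belongs to the last capital printed for it. Cd79a and Vpreb1 held the same 8 letters, CTCAAGGG. The region over the Cd79a window changed least of the 6, with log2 fold changes of -0.58 in EBF1-dTAG_C and -0.19 in EBF1-dTAG_N in the authors' deposited tables. The region over the Vpreb1 window had -1.25 in EBF1-dTAG_C and -1.47 in EBF1-dTAG_N in the authors' deposited tables.

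**Figure D4:**
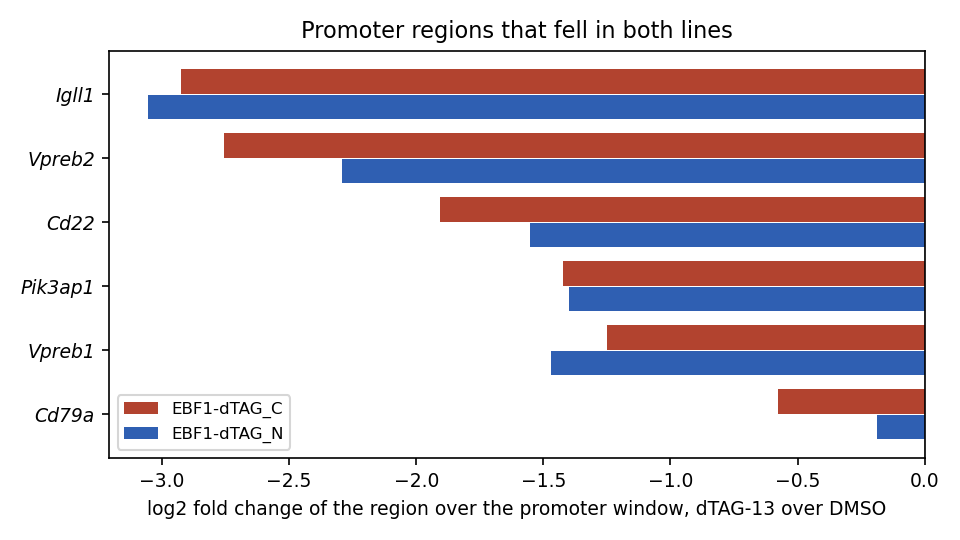
Log2 fold changes (dTAG-13 over DMSO, horizontal axis) of the regions over the promoter windows of Cd79a and of the 5 listed genes whose window regions fell in both lines, in EBF1-dTAG_C (red) and EBF1-dTAG_N (blue). Igll1 has -2.92 in EBF1-dTAG_C and -3.05 in EBF1-dTAG_N. The bars of Cd79a, -0.58 in EBF1-dTAG_C and -0.19 in EBF1-dTAG_N, are the shortest.

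Among 10445 regions within 1 kb of a gene boundary and paired between the lines, likeness was measured as the Euclidean distance over 4 values, both log2 fold changes and both log2 CPM values. Closest to the Cd79a start were regions of Ppm1f (distance 0.283) and Alkbh8 (0.342), besides one of Dym (0.344). By the authors' deposited edgeR tests, the Ppm1f region fell in both lines and the Alkbh8 region in EBF1-dTAG_N alone. The Dym region passed in neither line (edgeR adjusted p = 0.453 in EBF1-dTAG_C and 0.490 in EBF1-dTAG_N). Closest to the Cd79b start were regions of Gfra2 (0.402), Cbll1 (0.411) and Myo9b (0.421), and closest to the Cd79b internal region were those of Mrfap1 (0.271), Dusp4 (0.295) and Adamtsl2 (0.314).

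The labelled cell type was checked on peaks within 1 kb of the boundaries of marker genes in both DMSO libraries. Of 10 pro-B cell genes, 8 had such a peak in EBF1-dTAG_C and 9 in EBF1-dTAG_N; Dntt had none in either line and Rag1 none in EBF1-dTAG_C. None of 5 T cell and none of 5 myeloid genes had one in either line. Of 4 erythroid genes, Epor and Hbb-bt had one in EBF1-dTAG_C and none did in EBF1-dTAG_N, while Gata1 and Klf1 had none in either line. The part of the erythroid peaks in the results was not tested.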

How the data were processed

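ATAC-seq libraries were analysed from the authors' deposited files. Listed in the submitters' processing notes are edgeR 3.32.0, MACS2 2.2.7.1, deepTools 3.3.2, SAMtools 1.10, Bowtie2 2.3.5.1 and the build GRCm38; the handling of read filters, Tn5 shift and library scaling is not given in the sources used here. Peak lists were deposited per library, with a score, a fold enrichment ratio and −log10 p-values and q-values for each peak, per the file columns. For each line the authors deposited an edgeR comparison of dTAG-13 with DMSO, with log2 fold changes, log2 CPM, an F score, p-values and Benjamini-Hochberg adjusted p-values per region. These tables hold no values per library, so nothing was refitted. Positive folds mean more accessible with dTAG-13: where the DMSO lists alone had a peak, both of them, folds were negative for 92.6% of regions in EBF1-dTAG_C and 96.7% in EBF1-dTAG_N. Repeated entries, 8 in EBF1-dTAG_C and 12 in EBF1-dTAG_N, were counted once. The files' starts count from 0 and are printed from 1.

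The RefSeq gene table (GRCm38.p6, 21900 protein-coding genes) gives no strand, exons or UTRs. Regions were paired between the lines by at least 1 shared base. Each peak's summit coverage and local background were computed back from its fold enrichment and −log10 p-value, as deposited, under a Poisson model (relative tolerance 1e-04), for 97.0 to 99.9% of peaks, and coverage was scaled within each line by the median ratio over regions with peaks in all 4 lists (23726 in EBF1-dTAG_C, 25105 in EBF1-dTAG_N). The read depth of the libraries is unknown. As an approximate standard error, the size of a log2 fold change was divided by the root of F. It served the test between the lines, which was read against the degrees of freedom of EBF1-dTAG_C. Solving and this test were tested on simulated data. Python 3.11.15, SciPy 1.17.1 and pandas 2.3.3 were used. Named were all regions of both genes, the called neighbours within 50 kb, the 3 pathway genes per line with the smallest adjusted p of a fall, and the 3 most similar regions; the 5 promoters compared with Cd79a were chosen for having fallen in both lines. The members and lists were chosen with earlier results of these data known.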

Additional observations from a re-analysis of the deposited data

How the results depend on the processing

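The 4 falls in each line became 2 in EBF1-dTAG_C at an adjusted p under 0.01, and with a log2 change of 1 or more in size they became 1 in EBF1-dTAG_C and 0 in EBF1-dTAG_N. Taking every region within 20 kb, whichever gene was nearest, the rises became 1 in EBF1-dTAG_C and 4 in EBF1-dTAG_N, against 0 in each. Over the whole EBF1-dTAG_C table, 2298 regions passed at an adjusted p under 0.01 and 3760 at 0.05. The other 29 alternatives for counts and tests stayed within 1.5 times the count or on the same side of the threshold. Leaving out each library in turn (chosen after seeing the data), the mean log2 coverage ratio ranged from -0.59 to -0.41 at the Cd79a start, from -1.18 to -0.91 at the Cd79b start, from -0.90 to -0.70 at the near and from -1.57 to -1.18 at the far 3′ region. At the Cd79a upstream region it ranged from -0.42 to 0.01. The correlation of the deviations of same-numbered libraries was -0.297 in EBF1-dTAG_C and -0.00545 in EBF1-dTAG_N. The libraries were taken as unpaired. In EBF1-dTAG_C the negative value means that libraries of unlike number deviated together. The peak names inside the lists of that line also carry replicate numbers other than the labels', which leaves the numbering there in doubt. Whether libraries of unlike number formed pairs there was not tested. A replicate block cannot change the mean log2 ratio (-0.50 at the Cd79a start) by construction, and with it the exact permutation p was 0.125, the smallest that 16 arrangements allow, at 5 regions, and with crossed pairs it was 0.125 at 4 and 0.625 at the Cd79a upstream region. The deposited tables could not be fitted with a block, since they hold no values per library. With 2 libraries per group and unknown depth, these data cannot reach p under 0.05 at a single region by permutation.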
